A study of Mus musculus with 4 samples.

Results

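Acetylation of lysine 14 of histone H3 (H3K14ac) was mapped in mouse embryonic stem (mES) cells with a pair of monoclonal antibodies, 13HH3-1A5 (below 13HH3) and 7G8, and the resulting libraries are compared here with each other. They are 2 of the 4 libraries of the series, and the remaining libraries, H3K9ac and input DNA, are given as values beside them. All libraries are labelled as the E14 line of the strain 129P2/OlaHsd with no treatment and no altered allele. The labels name both antibodies as mouse monoclonals from different laboratories. The H3K9ac library was made with the rabbit polyclonal antibody ab4441, and input had no antibody. The methods describe wild type cells derived from blastocysts and kept on feeder cells before feeder-free passages, so the cells may differ from the label. The methods also state that 13HH3 was raised against an acetylated H3 peptide, whereas for 7G8 no such account was found in the sources used here. Each antibody has 1 library, so there is no replicate, no SD and no test, and every interval below covers counting error only. Intervals of ratios are exact 95% binomial intervals, and those of differences between ratios are 95% normal approximations.

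Histone acetylation neutralises the charge of lysines on the histone tails and is bound by bromodomain proteins. H3K14 is acetylated by GCN5 and PCAF (Kat2a and Kat2b) and by other acetyltransferases, and deacetylases remove the mark. H3K14ac is known, like H3K9ac, from active promoters and enhancers, whose start sites in mammals often lie in stretches rich in G, C and CpG dinucleotides. In ChIP-seq an antibody selects sheared chromatin fragments and the ends of these fragments are sequenced, so that a map depends on the modification, on what else the antibody binds and on how well fragments of each base composition are amplified and sequenced.

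One tag was kept for each position and strand, its 5' end was set 100 bp further in its 3' direction, and chromosomes 1 to 19 were used. This left 21176968 tags for 13HH3, 23248981 for 7G8, 22671232 for H3K9ac and 18688897 for input. Some tags of the ChIP libraries lay at the same base and strand in different libraries. The 13HH3 and 7G8 libraries shared 675595 positions, 3.79 times the 178353 that coincided when the libraries were set 5 to 100 bp apart. H3K9ac shared 4.14 times as many positions with 13HH3 and 4.10 times as many with 7G8 as at such offsets. With input the values were 1.13 for 13HH3 and 1.16 for 7G8. The cause was not tested. Tags at positions that also occur in another ChIP library made up 6.82% of 13HH3 and 6.20% of 7G8 tags. They made up 17.3% and 17.0% of those in the windows around transcription start sites (TSSs). Input differed in chromosome content, as log2 7G8 over input ran from -0.45 on chromosome 17 to 0.30 on chromosome 12, and values over input of single windows, and of gene groups that lie on few chromosomes such as histone genes and keratins, include this difference. At the promoters of ES cell genes the label was checked with H3K9ac. Log2 H3K9ac over input was 2.44 at Pou5f1 (on chromosome 17), 1.91 at Nanog, 3.38 at Sox2 and 3.97 at Zfp42, but -0.0029 at Esrrb. At Alb, Myh6, Ins2, Cd3e and Gfap, genes of other cell types, it lay between -0.84 and 0.75.

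Short stretches of genome show what the ends of the comparison look like. The following are the middle 200 bases of coding exons and of an intergenic bin among those with the most extreme ratios, read from NCBIM37 (mm9), with each CpG in capitals. They are shown because base composition went with the ratio of the antibodies over sums of regions, while these single features followed it only in part. The exons of Prdm8 (chr5:98614751-98614950, plus strand) and Nkx1-1 (chr5:33773713-33773912, minus strand) and the bin on chromosome 10 (chr10:18038401-18038600, plus strand) favoured 13HH3. The exon of Bnc2 (chr4:83938482-83938681, minus strand) did so with a moderate GC content. The exon of Sarm1 (chr11:78304278-78304477, minus strand) favoured 7G8 although rich in CpG, and the bin on chromosome 3 (chr3:3007401-3007600, plus strand) favoured 7G8 and holds no CpG in the stretch shown.
Prdm8 exon: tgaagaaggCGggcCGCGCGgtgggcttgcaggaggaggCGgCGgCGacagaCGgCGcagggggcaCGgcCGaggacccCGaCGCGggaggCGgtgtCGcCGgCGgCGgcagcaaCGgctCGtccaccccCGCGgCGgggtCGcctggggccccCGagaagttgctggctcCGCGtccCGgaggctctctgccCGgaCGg
Nkx1-1 exon: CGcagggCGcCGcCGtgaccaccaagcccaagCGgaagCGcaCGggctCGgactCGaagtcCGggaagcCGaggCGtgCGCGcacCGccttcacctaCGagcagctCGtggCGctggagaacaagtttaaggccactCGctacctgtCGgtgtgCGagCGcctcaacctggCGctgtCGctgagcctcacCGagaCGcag
Bin on chromosome 10: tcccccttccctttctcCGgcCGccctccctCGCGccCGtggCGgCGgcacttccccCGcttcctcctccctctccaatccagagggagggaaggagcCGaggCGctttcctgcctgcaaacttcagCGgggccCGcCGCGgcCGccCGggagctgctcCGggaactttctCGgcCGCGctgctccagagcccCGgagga
Bnc2 exon: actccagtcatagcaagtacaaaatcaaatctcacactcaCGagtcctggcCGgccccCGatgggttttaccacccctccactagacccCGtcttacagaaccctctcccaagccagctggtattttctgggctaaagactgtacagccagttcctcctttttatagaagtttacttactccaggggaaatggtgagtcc
Sarm1 exon: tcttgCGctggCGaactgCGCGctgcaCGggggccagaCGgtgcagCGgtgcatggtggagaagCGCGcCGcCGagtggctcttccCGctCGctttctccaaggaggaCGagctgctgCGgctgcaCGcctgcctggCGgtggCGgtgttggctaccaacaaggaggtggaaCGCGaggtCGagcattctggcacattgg
Bin on chromosome 3: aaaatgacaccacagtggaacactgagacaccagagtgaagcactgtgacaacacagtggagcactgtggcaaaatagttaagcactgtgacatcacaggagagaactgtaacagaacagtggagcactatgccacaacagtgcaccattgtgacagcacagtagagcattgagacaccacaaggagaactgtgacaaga

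The exon of Prdm8, a member of the PRDM family of zinc finger proteins, has a GC content of 70.9% and 188 CpGs in 1616 bp. It held 56 tags of 13HH3, 12 of 7G8, 82 of H3K9ac and 25 of input. Its log2 ratio of 13HH3 over 7G8 was 2.16 (1.44 to 3.39), computed for single features with 1 tag per 10000000 tags of the library added, while the interval is that of the tags themselves. The exon of the homeobox gene Nkx1-1 held 55 tags of 13HH3 against 12 of 7G8 (2.13, 1.41 to 3.37). The bin on chromosome 10, with 121 CpGs in 1 kb and a GC content of 74.7%, held 61 tags of 13HH3, 8 of 7G8, 61 of H3K9ac and 16 of input (2.75, 2.00 to 4.34). All of these features were dense in CpG, also the exon of Nkx1-1 with 106 CpGs in 854 bp. The exon of Bnc2, which encodes the zinc finger protein basonuclin 2, departed from this, with 81 tags of 13HH3, 19 of 7G8, 32 of H3K9ac and 15 of input (2.10, 1.49 to 3.03) at a GC content of 50.7%. At the other end, the exon of Sarm1, an NAD-cleaving enzyme of axon degeneration, held 18 tags of 13HH3, 46 of 7G8, 87 of H3K9ac and 17 of input (-1.13, -2.09 to -0.40) at a GC content of 66.2%. The bin on chromosome 3, 500.5 kb from the nearest protein-coding TSS, held 17 tags of 13HH3, 68 of 7G8, 16 of H3K9ac and 37 of input (-1.74, -2.73 to -1.08), with 3 CpGs in 1 kb. Its GC content of 48.3% lies in the highest decile of intergenic bins. The bins next to it in order of ratio, on chromosome 4 (-1.57) and chromosome 13 (-1.57), had GC contents of 52.4 and 45.5%. They held 24 and 37 CpGs in 1 kb, against means of 40.8% and 7.10 over all intergenic bins. These means are no fair reference, since the named features held at least 60 summed tags and tags were sparse in GC-poor bins. Tags per kb and 10000000 tags were 1.37 for 13HH3 and 2.43 for 7G8 in the lowest GC decile of bins. In the highest they were 6.99 and 5.74, so the minimum favoured GC-rich bins. Of the 6 features shown, which were picked for their ratio, the exon of Prdm8, that of Nkx1-1 and the bin on chromosome 10 were high in GC and favoured 13HH3, whereas the other three did not follow GC content. Of the next features in order of ratio, the bins on chromosome 17 (GC content 72.4%, ratio 2.52) and chromosome 13 (73.6%, 2.26) did follow it. The exons of Nsd1 (45.0%, -0.84, -1.61 to -0.20) and Zfhx4 (48.5%, -0.80, -1.70 to -0.077) lay below the mean GC content of 51.3% over coding exons. Their intervals did not lie wholly beyond 1.5-fold, so they are not read as following GC content.

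The question of the comparison is where the antibodies gave the same picture of H3K14ac. Tags were summed over 4 kinds of region, namely 21391 TSS windows (2 kb on each side of the start of protein-coding genes), 168800 coding exons over 2 kb from any such start, 890747 intron pieces of up to 1 kb and 1284630 intergenic bins of 1 kb. Around TSSs the antibodies gave nearly the same sum, with a pooled log2 ratio of 0.046 (0.043 to 0.050) and densities of 6.66 tags per 10000000 tags of the library (written 10M from here on) and kb for 13HH3 and 6.45 for 7G8. Windows of neighbouring TSSs overlap in part and were not merged. Tags they share count more than once, so intervals of sums over TSS windows are too narrow. Coding exons favoured 13HH3, with 8.08 against 5.84 tags per 10M and kb and a log2 ratio of 0.47 (0.46 to 0.48), which is 1.38-fold. Introns lay at 0.093 (0.092 to 0.095) and intergenic bins at -0.12 (-0.12 to -0.12). The intergenic value was -0.0728 in bins with at least 5 input tags, and the median over single bins with at least 20 tags of both antibodies was 0.0077. Bins with at least 20 tags were more often rich in GC, with 92418 in the highest GC decile and 1313 in the lowest. Exons therefore exceeded introns by 0.38 (0.37 to 0.38), exons exceeded intergenic bins by 0.59 (0.59 to 0.60), and TSS windows exceeded intergenic bins by 0.17 (0.16 to 0.17), a difference that turned negative at the same GC content. With the repeated tags of the 13HH3 file kept, the ratio at TSS windows was 0.137.

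Over input the antibodies agreed in the order of TSS windows and differed at exons. At TSS windows log2 over input was 0.42 for 13HH3 and 0.37 for 7G8, against 1.55 for H3K9ac. At coding exons 13HH3 lay slightly above input (0.058) and 7G8 below it (-0.41), with H3K9ac at 0.30. At introns the values were 0.065 for 13HH3 and -0.028 for 7G8. At intergenic bins they were -0.10 and 0.021. Thus TSS windows stood above intergenic bins for both antibodies, and coding exons stood above intergenic bins for 13HH3 but below them for 7G8.

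Single regions could be compared where both H3K14ac libraries together held at least 20 tags. A region was called when its 95% interval lay wholly beyond 1.5-fold. Of 20554 TSS windows, 118 were called higher with 13HH3 (0.574%) and 81 higher with 7G8 (0.394%). The first number was 219 with repeats kept and 300 with 1 kb on each side of the TSS, and the latter was 41 with at least 60 tags. Of 5433 coding exons, 296 were called higher with 13HH3 (5.45%) and 7 higher with 7G8 (0.129%). Of 391186 intron pieces the numbers were 3170 (0.81%) and 784 (0.2%), and of 397468 intergenic bins 1397 (0.351%) and 1289 (0.324%). The minimum of 20 tags was reached by 1313 of 128463 bins in the lowest GC decile and by 92418 in the highest. Of these, 4.87% and 0.0552% were called higher with 7G8, and 0% and 0.862% higher with 13HH3. The totals thus rest more on GC-rich than on GC-poor bins. Exons passed unevenly as well, 48 in the lowest and 1481 in the highest GC decile. The interval held 0 in 80.2% of TSS windows, 75.1% of exons, 90.4% of intron pieces and 92.9% of intergenic bins. Most single regions were thus indistinguishable between the antibodies at this depth, which is not the same as equal. In 2161 of 18470 TSS windows with at least 60 tags the whole interval lay within 1.5-fold. The variance of tags between the libraries was 2.60 times that of binomial sampling around 1 common ratio in TSS windows, 1.81 times in exons, 1.49 times in intron pieces and 1.40 times in bins. Across regions with at least 20 tags, tag densities of the antibodies had a Spearman correlation of 0.75 over TSS windows, 0.69 over exons, 0.29 over intron pieces and 0.13 over intergenic bins. These regions share sequence, mappability and 1 pair of libraries, and in the last kinds the counts are low. The minimum of 20 is set on the sum of the same counts, which can lower the correlation. It kept 96.1% of TSS windows, 3.22% of exons, 43.9% of intron pieces and 30.9% of bins. The correlations are therefore not ranked between kinds of region.

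GC content ordered the ratio in all 4 kinds of region. In the decile of intergenic bins with the lowest GC content (14.9 to 34.1%) the pooled log2 ratio was -0.83 (-0.84 to -0.82), and it was higher in each following decile up to 0.28 (0.28 to 0.29) in the highest (47.7 to 78.7%). The difference of 1.11 was far larger than the counting error. From the lowest to the highest decile, introns ran from -0.66 to 0.47, coding exons from -0.40 to 0.78 and TSS windows from -0.47 to 0.28. Over input the antibodies moved in opposite directions in intergenic bins, where 13HH3 over input went from -0.61 in the lowest decile to 0.22 in the highest, whereas 7G8 over input went from 0.22 to -0.060, and H3K9ac over input from -0.37 to 0.069 with its lowest value (-0.56) in between. In TSS windows both ended higher than they began, 13HH3 at 0.51 from -0.36 and 7G8 at 0.22 from 0.11, but 7G8 had its highest value, 0.50, in between and went down over the upper deciles. The mean GC content of the 200 bases that follow the start of each tag was 47.4% for 13HH3, 46.9% for H3K9ac, 45.5% for input and 45.1% for 7G8, so that 13HH3 stood above input and 7G8 slightly below it. The part of antibody binding, amplification and sequencing in this order was not tested.

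**Figure D1:**
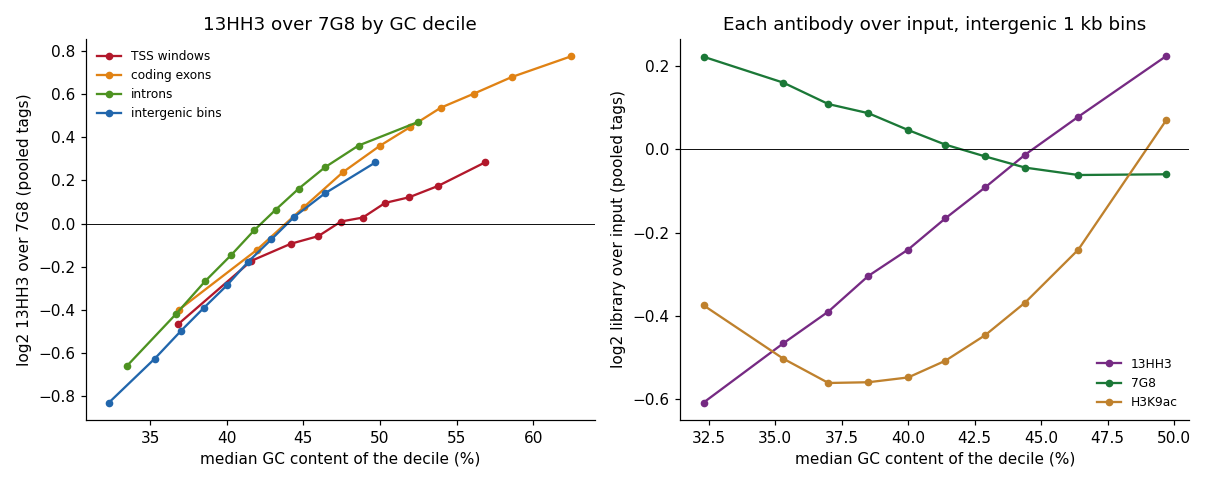
Left, pooled log2 of 13HH3 over 7G8 (y axis) against the median GC content in percent (x axis) of GC deciles of TSS windows, coding exons, introns and intergenic bins. Right, log2 of 13HH3, 7G8 and H3K9ac over input for the deciles of intergenic bins. The ratio of the antibodies climbs from -0.83 to 0.28 in intergenic bins, and over input the lines of 13HH3 and 7G8 cross.

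CpG dinucleotides went with the ratio within GC deciles, but only weakly and not in every kind of region. Within each GC decile, regions with more CpGs than the decile's median were set against the others. Intergenic bins with more CpGs (10.6 against 4.17 CpGs per kb) had a ratio higher by 0.080 on the log2 scale on average, and higher in 10 of 10 deciles. Introns differed by 0.11 (10 of 10 deciles) and exons by 0.052 (8 of 10). In TSS windows the mean difference was -0.038, above 0 in 4 of 10 deciles, with a range from -0.23 to 0.31. The value of 0.31 is that of the lowest GC decile, where windows with more CpGs also had a higher GC content (37.3 against 35.6%). Among the other dinucleotides of intergenic bins, AA and TT went with a higher ratio within GC deciles (0.11, above 0 in 9 of 10 deciles), and TA (-0.13) and AT (-0.11) with a lower ratio in 10 of 10 deciles. Within the deciles a gap in GC content remained, since bins with more of AA/TT, TA or AT were lower in GC by 0.52, 0.51 and 0.51 percentage points on average and those with more CpGs were higher by 0.21, so that these values are not ranked.

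At the same GC content the order of the kinds of region changed. Regions were set in classes of 5 percentage points of GC content, and differences were averaged over the classes with weights given by the 13HH3 tags of the first kind named. Coding exons then exceeded introns by only 0.051, against 0.38 without regard to GC content, and in 6 of 9 classes. With equal weight for each class the difference was 0.105. When tags were matched on the GC content of their own 200 bases the difference was -0.034, with the opposite sign, and with all coding exons, also those near TSSs, it was 0.000826 in the GC classes. The higher ratio of coding exons over introns is therefore not seen at matched GC content in both ways of matching. Introns still exceeded intergenic bins by 0.13 in 8 of 9 classes, and by 0.11 at the same fragment GC. Coding exons exceeded intergenic bins by 0.18 in 9 of 9 classes and by 0.070 at the same fragment GC, against 0.59 without regard to GC content. TSS windows lay below introns of the same GC content in 7 of 7 classes, with a mean difference of -0.27 (-0.173 with equal weight) and of -0.35 at the same fragment GC. Against intergenic bins of the same GC content TSS windows differed by -0.14 on average (-0.0417 with equal weight), with 3 of 7 classes above 0, and by -0.26 at the same fragment GC, with 4 of 27 classes above 0. The order of TSS windows and intergenic bins was thus the reverse of that without regard to GC content. In the GC class from 45 to 50%, for instance, the pooled ratio was 0.00089 at TSS windows and 0.30 at introns. Log2 over input in this class was 0.50 for both antibodies at TSS windows, against 0.21 for 13HH3 and -0.083 for 7G8 at introns. Both antibodies were thus higher over input at TSS windows than at introns of this class, 7G8 more so. In the classes below 40% GC 13HH3 over input was lower at TSS windows than at introns.

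The position within the TSS window mattered as well. Around all TSSs the ratio had its highest value, 0.45, at 250 bp downstream and its lowest, -0.20, at 650 bp upstream, with 0.11 in the flanks beyond 4 kb. The GC content was highest, 59.6%, in the first 100 bp downstream of the TSS. At the quintile of TSSs with the most CpGs within 500 bp (at least 77) the ratio reached 1.12 at 150 bp downstream, where the GC content was 72.7%, and was -0.26 at 1050 bp upstream. There 13HH3 had its maximum at 150 bp downstream, 2.96 times its flank. The 7G8 signal had its maximum at 450 bp upstream, 2.15 times its flank, and was only 1.5 times its flank at 150 bp downstream, where input was 1.40 times its own. Further downstream 7G8 was nearly as high again, 2.06 times its flank at 850 bp. Around all TSSs 7G8 had its maximum at 150 bp downstream (2.02 times its flank), as the other libraries did. H3K9ac at 150 bp downstream was 4.79 times its flank. In the first 100 bp upstream 7G8 fell below its flank, at 0.68, as input did (0.68), while 13HH3 stood at 1.02. In the quintile of TSSs with the fewest CpGs the ratio stayed between -0.26 and 0.069.

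**Figure D2:**
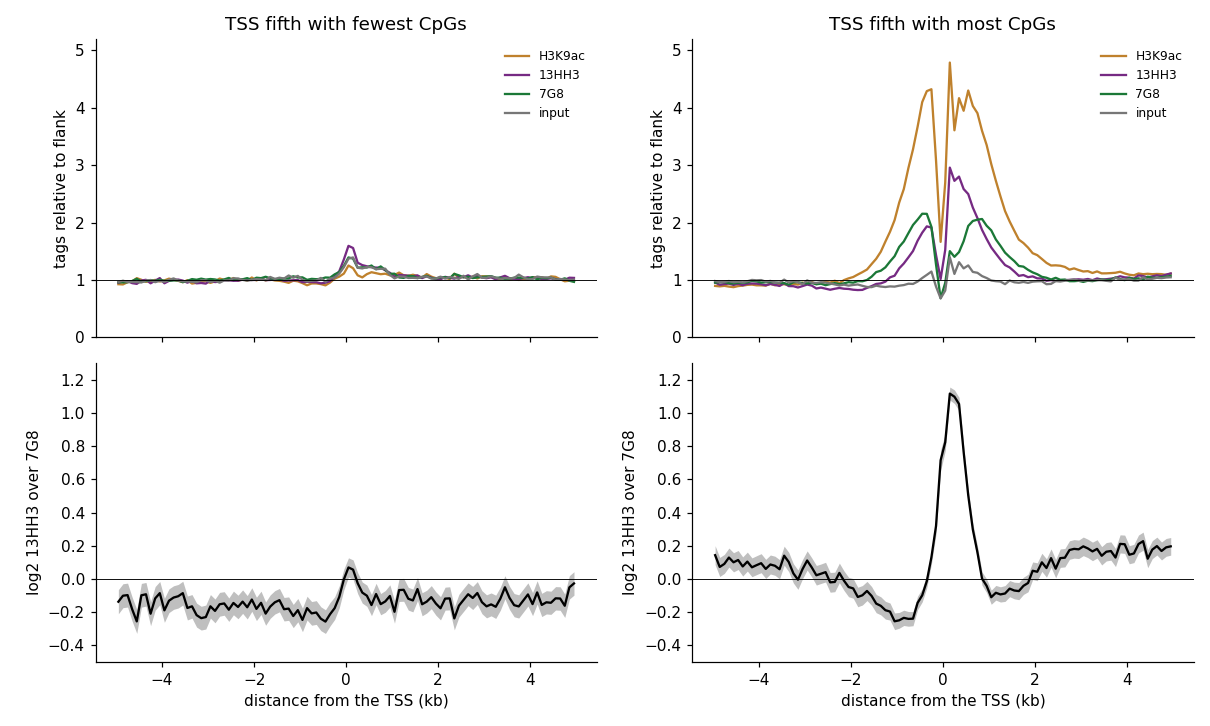
Tags in steps of 100 bp around the TSS (x axis, kb) for the quintiles of TSSs with the fewest and the most CpGs. The upper row shows each library relative to its mean beyond 4 kb and the lower row shows log2 of 13HH3 over 7G8 with the 95% counting interval in grey. At CpG-rich TSSs 13HH3 and H3K9ac peak at 150 bp downstream, and the ratio rises to 1.12. There 7G8 is highest at 450 bp upstream, nearly as high at 850 bp downstream, and lower in between.

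TSS windows also differed by their level of H3K9ac, which neither H3K14ac library fixes. Within each GC decile the windows were split into quintiles by H3K9ac tags. The quintile with the most H3K9ac had a lower ratio of 13HH3 over 7G8 than the quintile with the least, in 8 of 10 deciles, and the mean difference was -0.19 ± 0.014 (95% counting interval). The exceptions were the deciles with the lowest GC content, with 0.39 in the lowest. Over input both antibodies were higher with more H3K9ac, except 7G8 in the lowest GC decile (0.083 in the lowest quintile, 0.038 in the highest). From the lowest to the highest quintile 13HH3 over input went from -0.049 to 0.83, and 7G8 from -0.15 to 0.92, averaged over deciles. In the GC decile from 45.1 to 46.7%, 13HH3 over input went from -0.0012 to 0.91 and 7G8 from -0.18 to 1.13, so that the ratio turned from 0.18 to -0.23. Without the tags at positions shared between ChIP libraries the mean difference was -0.22, below 0 in 9 of 10 deciles. In introns the same split gave a difference of 0.11 and in intergenic bins of 0.040, in the opposite direction, although 4 of 10 deciles of the bins lay below 0. The splits were not alike in H3K9ac. Mean log2 H3K9ac over input of the highest quintile was 2.46 in TSS windows, 0.99 in introns and 0.38 in bins. In the lowest quintile it was -0.29, -1.55 and -2.29. Regions with like levels of H3K9ac were not compared between the kinds.

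**Figure D3:**
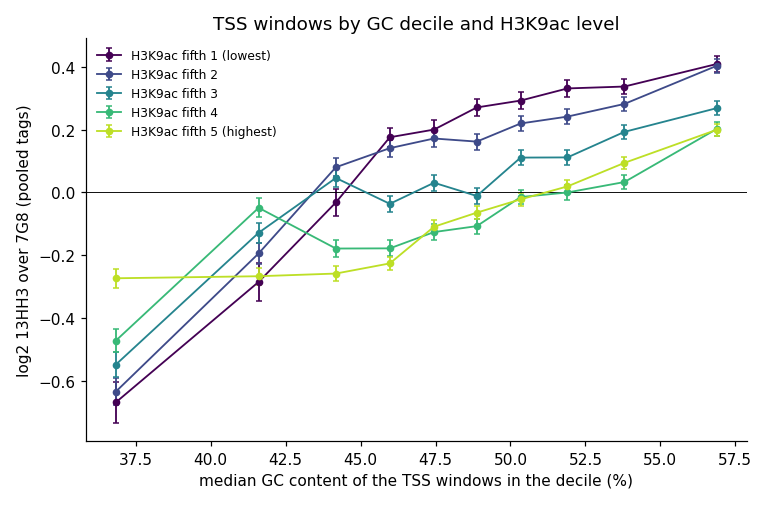
Pooled log2 of 13HH3 over 7G8 (y axis) of TSS windows in GC deciles (x axis, median GC content in percent), each split into quintiles by H3K9ac tags. Bars are 95% counting intervals. Above the lowest deciles the windows with the most H3K9ac lie under those with the least, by 0.40 at the widest.

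Windows at the ends of the ratio are described next. The 8 windows with the highest ratio among those with at least 60 tags were Foxd1, Nkx6-1, Begain, Insm1, Hoxd9, Gm13547, Msi1 and Ptma. Foxd1, a forkhead factor of kidney and retina development (chr13:99122200-99126199), had 46.3 tags per 10M with 13HH3, 11.2 with 7G8, 64.0 with H3K9ac and 20.3 in input. The homeobox gene Nkx6-1, a factor of beta cells and motor neurons, had 56.7 with 13HH3, 15.1 with 7G8, 45.4 with H3K9ac and 14.4 in input. In both windows 7G8 was near or below input while 13HH3 was well above it. Their log2 ratios of 13HH3 over 7G8 were 1.96 (1.41 to 2.73) and 1.84 (1.36 to 2.50). Hoxd9, of the Hox cluster on chromosome 2, had 54.3 with 13HH3 and 17.2 with 7G8, and Insm1, a zinc finger factor of neuroendocrine cells, had 51.9 and 16.3. Ptma, which encodes prothymosin alpha, was the window with the most acetylation among them, with 164.3 tags per 10M for 13HH3, 58.5 for 7G8 and 286.7 for H3K9ac. Of the 8, Gm13547, a predicted gene, was the exception in GC content, at 48.6%, since the others lay between 56.2 and 65.2%.

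The 8 windows with the lowest ratio were Olfr1489, Hist1h4c, Snupn, Olfr589, Cd226, Flg, Prl7b1 and Acox3. Olfr1489, an olfactory receptor gene (chr19:13705603-13709602), had 7.08 tags per 10M with 13HH3, 28.0 with 7G8, 6.62 with H3K9ac and 9.63 in input, and a log2 ratio of -1.84 (-2.90 to -1.15). The histone H4 gene Hist1h4c had 6.14 with 13HH3, 23.7 with 7G8, 63.5 with H3K9ac and 12.3 in input (-1.79, -2.94 to -1.06). These differ from each other in H3K9ac, which was below input at the receptor and well above it at the histone gene. Snupn, which encodes the import factor snurportin, had 13.2 with 13HH3, 42.2 with 7G8 and 102.3 with H3K9ac (-1.60, -2.33 to -1.05). Acox3, a peroxisomal acyl-CoA oxidase, had 11.8 and 33.5 (-1.43, -2.22 to -0.84). Hist1h4c, Snupn and Acox3 carried H3K9ac, while Olfr1489, Olfr589, Cd226, Flg and Prl7b1, genes of sensory neurons, blood cells, skin and placenta, lay below input in H3K9ac.

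**Figure D4:**
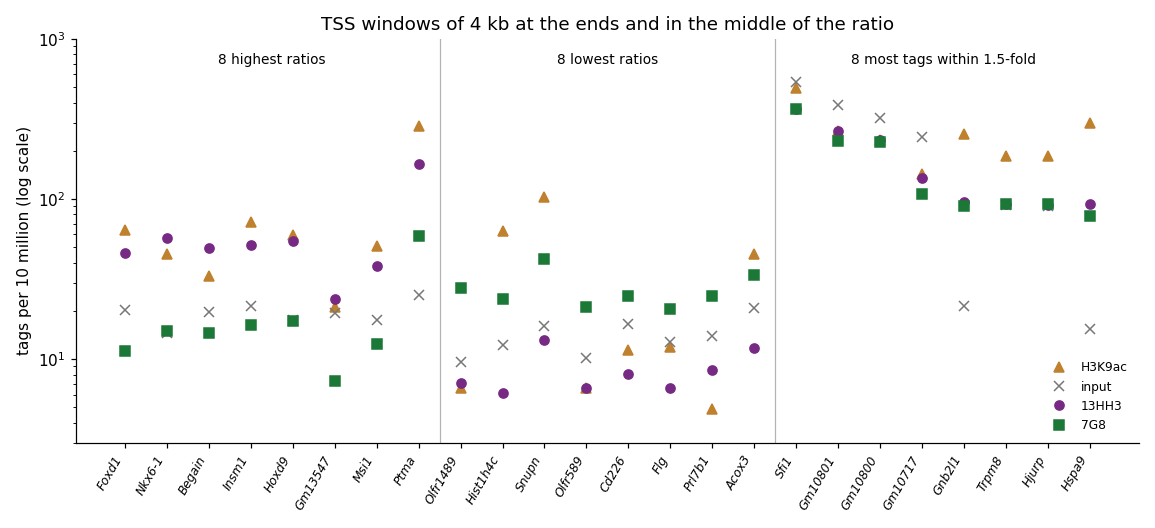
Tags per 10M (y axis, log scale) of each library in the 8 TSS windows with the highest ratio of 13HH3 over 7G8, the 8 with the lowest and the 8 with the most tags whose interval lay within 1.5-fold. Each point is 1 library. In the left block 7G8 lies below 13HH3 and, except at Nkx6-1 and Ptma, below input, in the middle block 13HH3 lies below 7G8, and in the right block the H3K14ac libraries nearly coincide.

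Other windows were chosen for agreement. The 8 windows with the most tags and an interval within 1.5-fold were Sfi1, Gm10801, Gm10800, Gm10717, Gnb2l1, Trpm8, Hjurp and Hspa9. At Sfi1, whose product binds centrins, 13HH3 had 364.5 tags per 10M and 7G8 362.2, but input had 540.4, and the predicted genes Gm10801, Gm10800 and Gm10717 were likewise below input with both antibodies. Input was itself far above usual, with 383.7 tags per 10M at Gm10801, 322.1 at Gm10800 and 242.9 at Gm10717. Its median over all windows with at least 20 tags was 19.3. Agreement at these windows is thus agreement below a very high input, and it is not read as a result about H3K14ac. The cause of the high input was not tested. Gnb2l1, the ribosomal scaffold RACK1, had 95.9 with 13HH3, 90.8 with 7G8, 254.5 with H3K9ac and 21.4 in input, and a ratio of 0.078 (-0.21 to 0.36). Hspa9, the mitochondrial HSP70, had 93.0, 78.7, 298.2 and 15.5 (0.24, -0.06 to 0.54). Log2 over input was 2.11 with 13HH3 and 2.03 with 7G8 at Gnb2l1, and 2.51 and 2.27 at Hspa9, so that both antibodies agreed well above input there. The windows of Trpm8 and Hjurp overlap and are not independent, and both antibodies were near input there (0.016 and 0.022 at Trpm8). Input was high at these windows too, with 91.5 tags per 10M at Trpm8.

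The 118 windows called higher with 13HH3 had a median GC content of 55.2% and a median of 76 CpGs within 500 bp of the TSS, against 48.4% and 44 over all 20554 windows. Their median tags per 10M were 51.9 with 13HH3, 23.0 with 7G8, 60 with H3K9ac and 22.5 in input. The 81 windows called higher with 7G8 had a median GC content of 36.7% and 5 CpGs, and medians of 6.61 with 13HH3, 20.2 with 7G8, 8.38 with H3K9ac and 12.3 in input. Windows of the first kind were thus rich in CpG and had usual H3K9ac, and those of the other kind were poor in CpG and low in H3K9ac. Olfactory receptor genes made up 31 of the 81 and 0 of the 118, and 1064 of all 20554 windows. In the lowest GC decile of TSS windows, which holds many receptor genes, 2.77% were called higher with 7G8. Without tags at shared positions 94 of the 118 and 68 of the 81 stayed called. Some called windows overlap another called window, 10 of the 118 and 4 of the 81.

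Gene groups of similar GC content lay on opposite sides. Of 77 windows of cytosolic ribosomal proteins, 66 had a ratio above 0, with a median of 0.43 and a pooled ratio of 0.45 (0.41 to 0.50), and 5 were called higher with 13HH3 against 0 called higher with 7G8. Over all 20554 windows 10417 had a ratio above 0, the median was 0.0067, and 0.574% were called higher with 13HH3. The called genes were Rps15, Rps3a, Rpl26, Rps19 and Rps10. Rps15 had 132 tags with 13HH3, 65 with 7G8, 328 with H3K9ac and 37 in input, a ratio of 1.13 (0.72 to 1.61). Relative to the median of all windows in the same GC decile, 65 of the 77 lay higher, by a median of 0.39. Median tags per 10M were 60.9 with 13HH3, 43.9 with 7G8 and 156.1 with H3K9ac. Both antibodies thus marked ribosomal protein genes above input (1.84 and 1.39 on the log2 scale), 13HH3 more so.

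Replication-dependent histone genes, which are transcribed in S phase and lie in clusters, showed the reverse. Of 61 windows with at least 20 tags, out of 66, 6 had a ratio above 0. The median was -0.61, the pooled ratio -0.57 (-0.63 to -0.51), and 4 windows (Hist1h4c, Hist1h2ag, Hist1h2bj and Hist1h2bg) were called higher with 7G8 against 0 with 13HH3, where 0.394% of all windows were called higher with 7G8 and 10417 of 20554 had a ratio above 0. Hist1h2ag had 54 tags with 13HH3, 136 with 7G8, 358 with H3K9ac and 19 in input, a ratio of -1.17 (-1.68 to -0.73). The mean GC content of the group was 46.2%, near the 48.9% of the ribosomal protein genes, and its median lay 0.58 below that of windows in the same GC deciles. Over input the pooled log2 values were 1.03 for 13HH3, 1.60 for 7G8 and 3.30 for H3K9ac, values that include the chromosome difference of input. Neighbouring histone genes share windows in part.

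**Figure D5:**
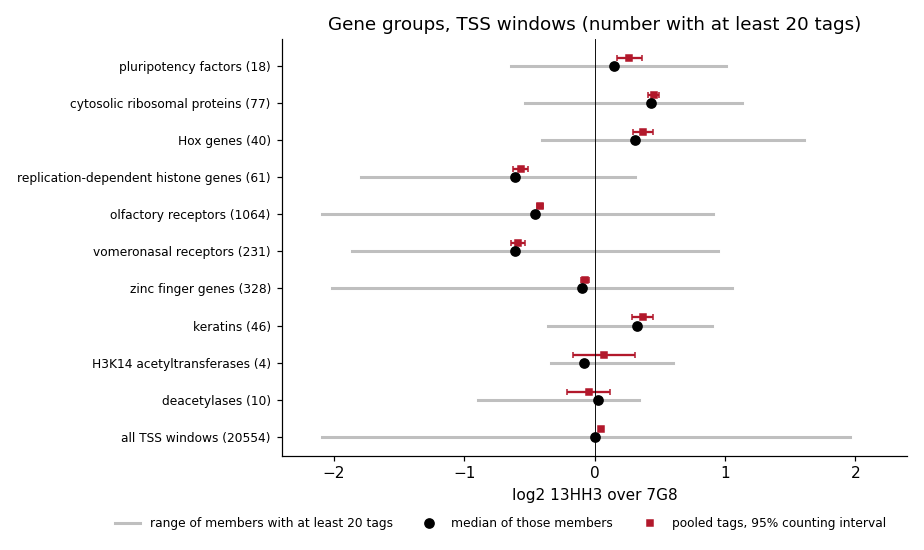
Log2 of 13HH3 over 7G8 (x axis) for TSS windows of gene groups, with the number of windows that held at least 20 tags. Grey lines span the members, black points are medians and red squares are pooled ratios with 95% counting intervals. Ribosomal protein genes (median 0.43), keratins (0.32) and Hox genes (0.31) lie right of 0, and histone genes (-0.61) and vomeronasal (-0.61) and olfactory receptors (-0.46) lie left of it.

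The receptor families had a low GC content (37.4% for olfactory and 36.6% for vomeronasal receptors). Of 1064 olfactory receptor windows with at least 20 tags, 31 were called higher with 7G8 (0 with 13HH3) (0.394% over all windows), and the median was -0.46, which was 0.064 below that of windows in the same GC decile, many of which are receptor genes themselves. Of 231 vomeronasal receptor windows 7 were called higher with 7G8 (0.394% over all windows), with a median of -0.61, 0.16 below the same GC decile. Of all TSS windows in the lowest GC decile 2.77% were called higher with 7G8. The called shares of both receptor families were near this value, so they are not read as particular to receptor genes. At olfactory receptors 7G8 lay slightly above input (0.10) and 13HH3 below it (-0.32), while H3K9ac was at -0.54.

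Of 40 Hox windows, 32 had a ratio above 0 (median 0.31), where 10417 of all 20554 windows did. Among them 1, Hoxd9, was called higher with 13HH3 (0.574% over all windows). Relative to the median of windows in the same GC decile, the Hox windows had a median of 0.21, and 28 of the 40 lay higher. Keratins had a median of 0.32, with 40 of 46 above 0 and 0 called in either direction (0.574% and 0.394% over all windows). Relative to windows in the same GC decile their median was 0.27, and 40 of the 46 lay higher. Over input keratins lay at -0.017 with 13HH3 and -0.39 with 7G8, and H3K9ac at -0.19, so that neither mark stood above input there. Zinc finger genes (Zfp symbols) had a median of -0.094 over 328 windows, with 7 called higher with 7G8 (0.394% over all windows) and 1, Zfp42, higher with 13HH3 (0.574% over all windows). The acetyltransferases of the list, of which 4 of 7 matched by symbol, and the deacetylases (10 windows) had medians of -0.081 and 0.025 and 0 called windows. Among them Ep300, the acetyltransferase p300, had the highest ratio, 0.60 (0.18 to 1.06), and Hdac1 the lowest, -0.89 (-1.64 to -0.27).

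The pluripotency factors were split. Of 18 windows 10 had a ratio above 0, with a median of 0.15, and 2 were called higher with 13HH3 against 0 with 7G8, beside 10417 of 20554 above 0 and 0.574% called higher with 13HH3 over all windows. The called genes were Klf2, a Kruppel-like factor, with 165 tags of 13HH3, 89 of 7G8, 302 of H3K9ac and 37 of input (1.01, 0.64 to 1.41), and Zfp42 (Rex1), a marker of naive ES cells, with 153, 84, 471 and 23 (0.98, 0.61 to 1.40). Sox2 had 146 tags with 13HH3 and 81 with 7G8 (0.96, 0.58 to 1.39), just inside the threshold. Pou5f1, which encodes Oct4, had 100 tags with 13HH3, 145 with 7G8, 412 with H3K9ac and 61 in input, a ratio of -0.39 (-0.78 to -0.024), and Nanog had 91 and 120 (-0.26, -0.67 to 0.14). For Nanog the difference was within counting error. The windows of Sox2 and Klf2 have a GC content of 56.8 and 59.1%, whereas that of Zfp42 has 44.5%, so the factors did not follow GC content alone.

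A further set of windows was that of loci drawn as tracks or measured by ChIP-qPCR in the work these libraries come from. Of these 12 windows, 11 were not called, where 0.574% of all windows were called higher with 13HH3 and 0.394% higher with 7G8. Bnc1, which encodes basonuclin 1, is not among the loci with listed ChIP-qPCR primers. It was called higher with 13HH3, with 91 tags of 13HH3, 40 of 7G8, 102 of H3K9ac and 44 of input (1.27, 0.77 to 1.89). At Bnc1 13HH3 was above input (0.84 on the log2 scale) and 7G8 below it (-0.43). Hnrnpa2b1, an RNA-binding protein, had 173 tags of 13HH3, 131 of 7G8, 644 of H3K9ac and 28 of input (0.53, 0.20 to 0.87). The chaperone gene Hspd1 had 105, 108, 406 and 27 (0.092, -0.31 to 0.50). The intervals of the remaining 9 (Rnf25, B230219D22Rik, Sntg1, Tcfap2d, Gabra4, Grm8, Hhip, 4930486L24Rik and Dsc1) held 0.

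Coding exons were compared by length, since a short exon is narrower than a fragment. The ratio was 0.32 for exons under 100 bp, 0.41 from 100 bp, 0.47 from 150 bp, 0.56 from 200 bp, 0.54 from 500 bp and 0.50 from 1 kb, while their GC content went from 48.7 to 52.9% and back to 51.6%. Over input 7G8 was below 0 in every length class (-0.32 to -0.46) and 13HH3 went from -0.054 in the shortest to 0.22 from 500 bp. Around exons of 100 to 300 bp all 4 libraries had a maximum at the exon, 1.41 times the flank for 13HH3, 1.2 for 7G8, 1.22 for H3K9ac and 1.40 for input. The exon peak of 13HH3 was thus as high as that of input, and those of 7G8 and H3K9ac were lower.

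Away from genes the ratio was lower. In intergenic bins it was 0.0034 within 10 kb of the nearest protein-coding TSS and 0.022 from 10 to 50 kb, and it then went down in each class of distance to -0.51 beyond 1 Mb, while the mean GC content went from 42.8 to 36.9%. With equal weight for each GC decile the difference was smaller, with -0.22 in the nearest and -0.32 in the farthest bins. Over input 13HH3 went from 0.028 to -0.35 and 7G8 from 0.025 to 0.16. Bins far from genes thus had more 7G8 and less 13HH3 than input.

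Over windows of 1 Mb the ratio ran from -1.02 to 0.42, with a spread (SD) of 0.27 where counting alone gives 0.028. Its Pearson correlation with GC content was 0.93 and its Spearman correlation 0.95 across 2379 windows, which share chromosomes and both libraries and are not independent. By chromosome the ratio was lowest on chromosome 3 (-0.097), the one with the lowest GC content, and highest on chromosome 19 (0.054), whose GC content of 42.7% is below those of chromosome 11 (43.8%, ratio 0.051) and chromosome 7 (43.0%, 0.045). The base composition of the bin itself and that of its surroundings both went with the ratio. Among bins in surroundings of like GC content, the quintile of bins with the highest own GC content exceeded the lowest by 0.81 (0.75 to 0.88 over the quintiles of surroundings). Among bins of like own GC content, the quintile of surroundings with the highest GC content exceeded the lowest by 0.19 (0.13 to 0.26). These splits spanned unlike ranges. In the lowest quintile of surroundings, mean own GC content ran from 33.1 to 48.1%. In the lowest quintile of own GC content, that of surroundings ran from 37.2 to 46.5%, while own GC content still rose from 33.1 to 34.4%. The differences are therefore not ranked.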

How the data were processed

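The authors aligned single-end reads with ELAND to mm9 (1 mismatch allowed) and deposited where each 36-base read mapped, strand included, as 1 unnormalized line. These positions were the values used. The score that the authors deposited beside them is 1 throughout, and no result rests on it. Only the 13HH3 file repeats positions and strands (738711 tags, 3.30%), so 1 tag was kept for each. Peaks and fold changes of the study were not used here. The 4 groups, each with 1 library, follow the labels. Members, gene lists and rules were chosen with earlier results of these data known.

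Regions came from GENCODE M1 on NCBIM37, the build of the tags. GC and CpG were counted on its sequence, and regions with unknown bases were left out. Ratios were log2 of tags per 10000000 (10M) of chromosomes 1 to 19. Sums had no pseudocount and single regions had 1 tag per 10M added. Intervals of ratios are exact (Clopper-Pearson) at 95%, and those of differences between ratios use a normal approximation. Regions were called beyond 1.5-fold from 20 summed tags. Named windows had at least 60 summed tags and were the 8 highest ratios, the 8 lowest and the 8 with most tags whose interval lay within 1.5-fold, besides the study's own loci, marker genes and gene groups by symbol. The same order of ratios chose the printed stretches, after values were seen. Alternatives covered repeats, scaling, the shift of tags, windows, exons, bins, the tag minimum, the weighting of GC classes and positions shared between libraries. Calculations ran in Python 3.11.15 (scipy 1.17.1, numpy 2.4.6, pandas 2.3.3), and figures were drawn with matplotlib 3.10.9. PCR tags without molecular identifiers are not independent molecules, so intervals cover counting error only.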

Additional observations from a re-analysis of the deposited data

Results flagged for a closer look

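Chromosome Y in both H3K14ac libraries and the mitochondrial genome with 7G8 stood above input, in data outside the main measurement. Repeated tags occurred in the 13HH3 file alone. The 13HH3 file held 738711 tags that repeat a position and strand, and those of input, 7G8 and H3K9ac held 0. The latter files thus list each position and strand at most once, so repeats cannot be compared between the libraries. Ratios with repeats kept set unlike files against each other. Repeats made up 9.20% of the 13HH3 tags in TSS windows, 4.19% in coding exons, 3.06% in introns and 2.68% in intergenic bins. Chromosome Y, which the comparisons did not use, had 6305 tags per 10M (10000000 tags of the library) with 13HH3 and 7865 with 7G8, against 1731 in input and 5250 with H3K9ac. Chromosome X had 201426 with 13HH3, 238945 with 7G8 and 321479 in input. The mitochondrial genome had 730 tags per 10M with 7G8, 341 with 13HH3, 838 with H3K9ac and 406 in input. What these differences come from was not tested.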

How the results depend on the processing

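The pooled ratios, the GC and CpG differences, the differences at the same GC content and the TSS window calls were recomputed with 1 choice changed, and the gene groups, distances and 1 Mb windows were not. With repeats kept, which only the 13HH3 file holds, the pooled log2 ratio of 13HH3 over 7G8 was 0.137 at TSS windows. It was then 0.483 at coding exons, 0.0898 at introns and -0.132 at intergenic bins. The GC difference was then 1.16, the CpG difference 0.0875, and 219 TSS windows were called higher with 13HH3 in place of 118. With the median of intergenic bins set to 0 the ratios were 0.0385, 0.462, 0.0857 and -0.13. With the 5' end not moved, exons lay at 0.462, introns at 0.0948 and the GC difference at 1.1. With 1 kb on each side of the TSS the ratio was 0.0818 and 300 windows were called higher with 13HH3. With all coding exons the ratio was 0.451 and the exon difference from introns at the same GC 0.000826, against 0.0508. At the same fragment GC, a choice made after seeing the data, that difference was -0.0341, of opposite sign, and those of TSS windows were -0.352 from introns and -0.257 from intergenic bins. With equal weight for each GC class, likewise chosen later, the values were 0.105, -0.173 and -0.0417. Bins over 10 kb from any gene gave -0.155 for the ratio, 1.12 for GC and 0.0832 for CpG. Bins with at least 5 input tags gave -0.0728 and 1.05. GC content of 3 kb around the bin gave 0.977. With at least 60 summed tags, 41 TSS windows were called higher with 7G8 in place of 81. Without positions shared between ChIP libraries, also chosen after seeing the data, exons lay at 0.492, introns at 0.0973, intergenic bins at -0.124 and the GC difference at 1.13. Of 61 alternatives 26 moved by no more than the counting interval (counts by no more than 1.5 times), 34 moved further with the same sign and 1 changed sign, namely exons against introns at the same fragment GC. Except where a value shows it, the cause of a change was not tested.

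No paired analysis was possible because each antibody has 1 library. Antibody and library cannot be told apart. Intervals leave out variation between libraries, and single regions vary more than counting. Median summed tags were 116 per TSS window, 18 per intron piece, 14 per intergenic bin and 3 per coding exon. A call needs the whole interval beyond 1.5-fold, so changes well above 1.5-fold were mostly not called in single regions. The window of Sox2, with 227 summed tags and a log2 ratio of 0.96 (0.58 to 1.39), was not called. The genome carried no mask of repeats, and mappability was not modelled.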
